A study of Mus musculus with 36 samples.

Results

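Extracellular vesicles (EVs) from neural stem cell (NSC) cultures kept at a heavy ethanol dose were compared with EVs from the same cultures kept at a moderate dose. The comparison took 12 of the 36 libraries of the study, 6 per dose, chosen by their titles (EV, 320 or 120 mg/dL) and paired by culture. The dose groups share no control library, so the step from 120 to 320 mg/dL does not rest on the untreated EVs. The study asked how sex and ethanol shape the RNA of EVs and of the cells that secrete them, with 18 EV and 18 cell libraries.

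All cultures, at every dose, came from C57BL/6J mice that the labels give as wild type and the study's methods as the Ai14 line, which carries a reporter transgene. Dorsal telencephalic neuroepithelium of gestational day 12.5 was pooled by fetal sex within each of 3 pregnancies (sets 3, 4 and 5), which gave 3 female and 3 male cultures, named here by set and sex (3F, 3M, 4F, 4M, 5F and 5M). They grew as free-floating neurospheres in serum-free medium with mitogens and were used at passages 7 to 10. Ethanol was present for 5 days at 120 mg/dL (26 mM; 100 to 134 mg/dL measured in the medium) or 320 mg/dL (70 mM; 250 to 380 mg/dL measured), and 4 flasks made 1 sample. EVs were concentrated from the medium by ultracentrifugation after a 0.2 µm filter, so each library is a bulk mixture of small particles from many cells. The cultures are litters pooled by sex, propagated outside the embryo, and not single fetuses.

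EVs are membrane-bound particles that carry proteins and RNA out of a cell and can hand them to other cells. Their RNA holds fragments and whole transcripts of messenger RNAs along with many small noncoding RNAs, in proportions that differ from those of the cell. NSCs of the fetal dorsal telencephalon divide to produce the neurons and later the glia of the cortex, and fetal ethanol exposure is known to disturb this growth.

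The EV libraries held 0.959 to 5.51 M counts at 120 mg/dL (M stands for 1000000 counts; median 4.56 M) and 1.55 to 4.24 M at 320 mg/dL (median 3.31 M). The total was higher at 320 mg/dL in 2 of 6 cultures, with a mean paired difference of -0.576 M ± 1.21 (SD, n = 6; two-sided exact permutation test over the sign changes of the pairs, p = 0.344, adjusted p = 0.844 over 3 measures). The numbers of features with a count overlapped between the doses (15691 to 24715 against 18261 to 21606, exact permutation p = 0.594, adjusted p = 0.844, n = 6). So did the share of counts in the 10 features with the most counts, with medians of 50.2% and 55.2% (exact permutation p = 0.844, adjusted p = 0.844, n = 6). With 6 pairs the smallest p this test can give is 0.03125. All 4 libraries of the cultures 3M and 4F were below 2 M counts, and the 320 mg/dL libraries of these cultures stood apart in other ways. In 3M the 10 features took only 29.6% of the counts, and in 4F a single long noncoding RNA locus, Gm36876, took 23.1%. The scaling factors of the trimmed mean of M values (TMM) ran from 0.476 (4F, 320 mg/dL) to 1.68 (3M, 320 mg/dL), so every scaled value in these cultures leans on that factor.

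**Figure D1:**
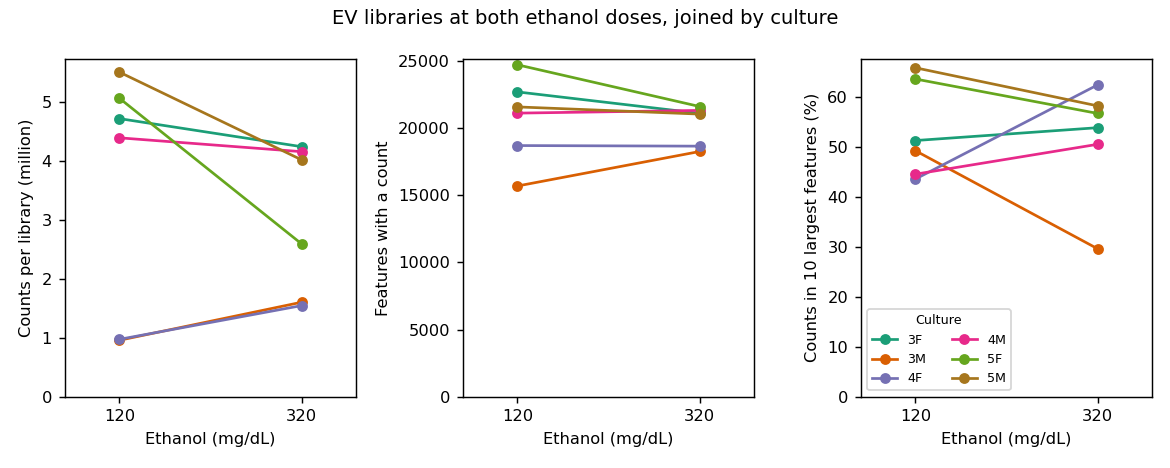
Total counts in M (1000000 counts), features with a count and the percent of counts in the 10 features with the most counts are shown for each EV library, with a line joining the 120 and 320 mg/dL libraries of a culture. The lines run in both directions in each panel, and 3M and 4F hold the 4 smallest totals.

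The labelled cell type was checked by its markers. Messenger RNAs of NSCs were present in the EVs at both doses, with Vim (vimentin, an intermediate filament of radial glia) at 238 to 333 CPM (counts per 1000000 counts, after TMM scaling) at 120 mg/dL and 254 to 368 CPM at 320 mg/dL. Fabp7, a fatty acid binding protein of radial glia, was at 98.5 to 279 and 119 to 231 CPM. Sox2, a defining transcription factor of NSCs, had 0 counts in all 24 EV and cell libraries of these doses, while the long noncoding RNA that surrounds it, Sox2ot, had 610 counts in EVs and 12710 in cells. Sox2 lies within Sox2ot on the same strand, and the part of this overlap in its 0 counts was not tested. Counts for red blood cell markers summed to at most 1.37 CPM in any EV library, for microglial markers to at most 8.12 CPM, and for vessel and fibroblast markers to at most 16.5 CPM each. Alas2, Cldn5 and the astrocyte marker Aqp4 had no count in EVs. Other astrocyte markers were counted, and the astrocyte sums overlapped between the doses (7.39 to 60.6 against 8.996 to 84.05 CPM). Marker sums for NSCs overlapped between the doses (642 to 812 against 610 to 938 CPM), as did those for neurons (159 to 246 against 176 to 231 CPM) and the oligodendrocyte lineage (166 to 292 against 162 to 276 CPM).

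No gene passed the threshold between the doses in EVs. Of 11213 genes tested with edgeR's quasi-likelihood test, with the culture as a block, 0 (0%) had a Benjamini-Hochberg adjusted p under 0.05. Without adjustment 397 (3.54%) had p under 0.05, of which 199 were higher (1.77%) and 198 lower (1.77%) at 320 mg/dL, and 8 genes had p under 0.001. DESeq2 placed 3 genes past its threshold and limma with sample quality weights 5, and these genes are named beside their values below. The p-values measure the spread between these 6 cultures. In bulk EV RNA, the number of vesicles that carry a transcript and the amount of it per vesicle cannot be told apart.

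The estimates were narrow for most genes. The median log2 fold change was 0.01, the median absolute log2 fold change 0.13 and the median SE 0.19. In 11151 of the 11213 genes (99.4%) the fitted difference was less than 2-fold. The 95% interval reached a median of 1.23-fold to either side when genes were divided into 3 classes by level and the highest class was taken (median 38.7 CPM), 1.3-fold in the middle class (11.9 CPM) and 1.5-fold in the lowest (4.81 CPM). A single direction in all 6 cultures was seen for 395 genes (3.52%), of which 242 were higher (2.16%) and 153 lower (1.36%). The dose groups did not overlap for 8 genes (0.0713%). These counts are of TMM-scaled values, and on library totals the groups of all 8 overlapped.

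**Figure D2:**
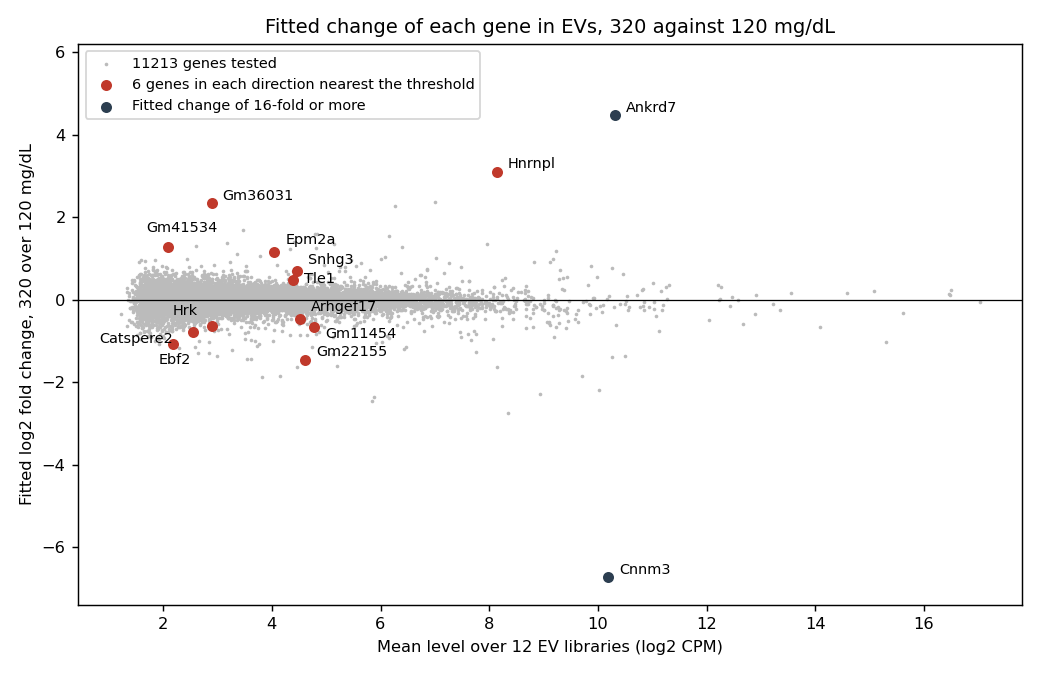
Each point is 1 of 11213 genes, with its mean level in the 12 EV libraries (log2 CPM) on the x axis and its fitted log2 fold change, 320 over 120 mg/dL, on the y axis. Red points are the 6 genes per direction of smallest p among those with 1 direction in all 6 cultures. Dark points, Cnnm3 and Ankrd7, are the 2 genes with a fitted change of 16-fold or more, and the grey cloud lies mostly within 1 log2 unit of 0.

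Among the genes higher at 320 mg/dL in all 6 cultures, the smallest p-values belonged to Epm2a, Hnrnpl, Gm36031, Snhg3, Gm41534 and Tle1. All 6 missed the threshold in EVs alone. Hnrnpl encodes an RNA-binding protein of the hnRNP family that regulates alternative splicing, and it lies on chromosome 7 of GRCm39 from 28507966 to 28521693. Its level was 33.1 to 104 CPM at 120 mg/dL (median 46.3) and 186 to 1109 CPM at 320 mg/dL (median 468). In raw counts this was a median of 173 against a median of 1993, with 40 to 250 counts at 120 mg/dL and 156 to 2876 at 320 mg/dL. The groups did not overlap in TMM-scaled CPM, and the fitted log2 fold change was 3.10 ± 0.45 (SE, 95% interval 2.11 to 4.09, adjusted p = 0.223 by edgeR).

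The size of the Hnrnpl difference varied among the cultures. The log2 difference was 4.31 in 5F, 4.05 in 4M, 3.69 in 3F, 3.11 in 5M, 1.95 in 3M and 1.03 in 4F. Culture 4F stood apart: it had 129 counts at 120 mg/dL and 156 at 320 mg/dL, which is 132 and 101 CPM on the library totals, a ratio of 0.762. Only after TMM scaling, where its 320 mg/dL library has the factor 0.476, was 4F higher at 320 mg/dL. Hnrnpl was thus higher on plain library totals in 5 of 6 cultures, by 7.41-fold (3M) to 22.7-fold (5F). In the cells that secreted these EVs it was at 134 to 186 CPM at 120 mg/dL and 125 to 179 CPM at 320 mg/dL, which overlapped almost entirely (log2 -0.03 ± 0.06, SE). Untreated EVs of the same cultures, scaled together with the treated ones, held Hnrnpl at 56.4 to 703 CPM (median 152), a range that spans the medians at 120 mg/dL (49.5) and 320 mg/dL (502) on that scale. Hnrnpl overlaps Gm57249 and Gm73595 on the opposite strand, and since no source used here says how strand was treated in the counting, its counts may hold reads of these.

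Epm2a encodes laforin, a phosphatase of glycogen metabolism, and lies on chromosome 10 from 11219132 to 11335388. Its level was 8.88 to 11.9 CPM at 120 mg/dL (median 10.1) and 15.8 to 28.2 CPM at 320 mg/dL (median 22.4), from 10 to 54 and 18 to 133 counts. The groups did not overlap, and the log2 fold change was 1.17 ± 0.15 (SE, 95% interval 0.83 to 1.5, adjusted p = 0.188 by edgeR, the smallest of all genes tested). By culture the log2 difference ran from 0.44 in 3M to 1.48 in 3F. Here too 4F was lower at 320 mg/dL on library totals, with 13.3 and 11.6 CPM, and the non-overlap exists only after TMM scaling. In cells Epm2a was at 9.40 to 17.0 and 10.2 to 16.9 CPM (log2 0.08 ± 0.07, SE). In untreated EVs it was at 11.9 to 37.8 CPM (median 17.3), between the medians of 10.7 and 23.6 CPM at 120 and 320 mg/dL on the same scale. Epm2a overlaps Gm66672 and the pseudogene Rpl17-ps11 on the opposite strand.

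The other genes of this group were lower in level or smaller in difference. Gm36031, a locus with no entry in the annotation used, had 0 to 12 counts at 120 mg/dL and 8 to 108 at 320 mg/dL, or 0 to 9.70 CPM (median 1.85) and 1.67 to 22.3 CPM (median 10.5). The groups overlapped and the log2 fold change was 2.33 ± 0.39 (SE, adjusted p = 0.520 by edgeR). Its 4F libraries went the other way on library totals, 12.3 to 5.17 CPM. Snhg3, a host gene of small nucleolar RNAs, was at 3.56 to 35.7 and 5.25 to 61.8 CPM (log2 0.69 ± 0.12, SE, adjusted p = 0.542 by edgeR), and its difference lay between 0.45 and 1.04 in every culture after TMM scaling. Snora73a, Snora73b and Rcc1 overlap Snhg3 on the same strand, so its counts may hold or lack reads of these. Gm41534, a long noncoding RNA, had a log2 fold change of 1.29 ± 0.28 (SE) from 0 to 28 and 4 to 45 counts. Tle1, a co-repressor of the Groucho family, was at 8.31 to 26.2 and 12 to 38.8 CPM with a log2 fold change of 0.48 ± 0.11 (SE). Both had an adjusted p of 1 by edgeR. On library totals, Snhg3 and Tle1 were lower at 320 mg/dL in 4F and higher in the other 5 cultures, while Gm41534 was higher in all 6.

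**Figure D3:**
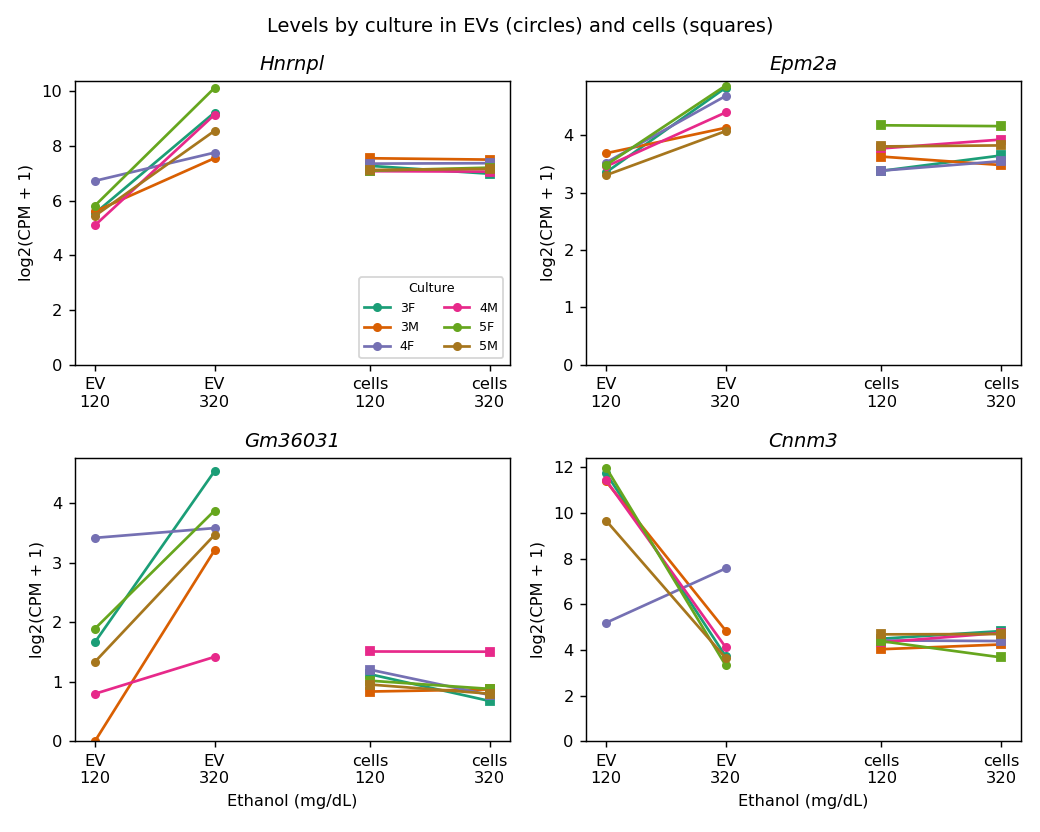
Levels of Hnrnpl, Epm2a, Gm36031 and Cnnm3 are shown as log2(CPM + 1) in EVs and in cells, with a line for each culture from 120 to 320 mg/dL. In EVs the lines of Hnrnpl and Epm2a go up in 6 of 6 cultures after TMM scaling (5 of 6 on library totals) and those of Cnnm3 go down in 5 of 6, while the lines in cells are nearly flat for Hnrnpl and Epm2a.

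Among the genes lower at 320 mg/dL in all 6 cultures, the smallest p-values belonged to Ebf2, Arhgef17, Catspere2, Gm11454, Gm22155 and Hrk. None passed the threshold. Ebf2, a transcription factor of the early B-cell factor family, was at 3.69 to 7.68 CPM at 120 mg/dL (median 5.49) and 1.46 to 4.31 CPM at 320 mg/dL (median 2.67). It rested on 6 to 34 counts against 2 to 11, and the fitted log2 difference was -1.08 ± 0.20 (SE), with an adjusted p of 0.691 by edgeR. Taken in log2(CPM + 1), which shrinks differences at such low levels, the difference was even among the cultures, from -1.02 to -0.71. Hrk, a BH3-only protein of the BCL2 family that promotes apoptosis, was at 4.74 to 12.4 CPM (median 7.35) and 2.75 to 7.53 CPM (median 4.66), with a log2 fold change of -0.64 ± 0.16 (SE). The dose groups of Ebf2 and of Hrk overlapped. Arhgef17 had a log2 fold change of -0.46 ± 0.10 (SE), and Catspere2, a subunit of the sperm calcium channel CatSper, one of -0.79 ± 0.18 (SE). The long noncoding RNA Gm11454 was at 17.8 to 65.7 and 10.1 to 44.3 CPM (log2 -0.66 ± 0.15, SE). All of these except Ebf2 had an adjusted p of 1 by edgeR. The direction in all 6 cultures is that after TMM scaling. On library totals Ebf2, Catspere2 and Gm11454 were lower in 6 of 6 cultures, and Hrk, Arhgef17 and Gm22155 in 5 of 6, with 3M higher.

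Gm22155 is the only small RNA among the 12 genes, and its sequence is shown because it places the locus in a known family. It is annotated as a small nuclear RNA on the minus strand of chromosome 6 of GRCm39, from 6924118 to 6924279. The capitals mark ACTTACCTG, written as DNA, the stretch near the start of U1 small nuclear RNA that pairs with 5′ splice sites. The stretch was searched on the transcript strand in the first 20 bases, and 53 of 1381 annotated small nuclear RNA transcripts (3.84%) hold it there. The sequence is that of GENCODE vM39, 5′ to 3′.
Gm22155: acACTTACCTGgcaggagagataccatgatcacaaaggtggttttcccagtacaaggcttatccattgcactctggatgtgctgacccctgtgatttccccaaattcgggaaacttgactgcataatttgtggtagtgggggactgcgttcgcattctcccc
The counts of Gm22155 were 2 to 448 at 120 mg/dL and 5 to 87 at 320 mg/dL, or 2.37 to 114 CPM (median 20.7) and 1.88 to 34.1 CPM (median 9.22). The log2 fold change was -1.46 ± 0.36 (SE, adjusted p = 1 by edgeR), with culture 5M at -2.98 and 3M at -0.23. Reads of near-identical U1 copies could be assigned to this locus or away from it, so its value is uncertain. It had at most 22 counts in any of the 12 cell libraries and was not tested there.

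**Figure D4:**
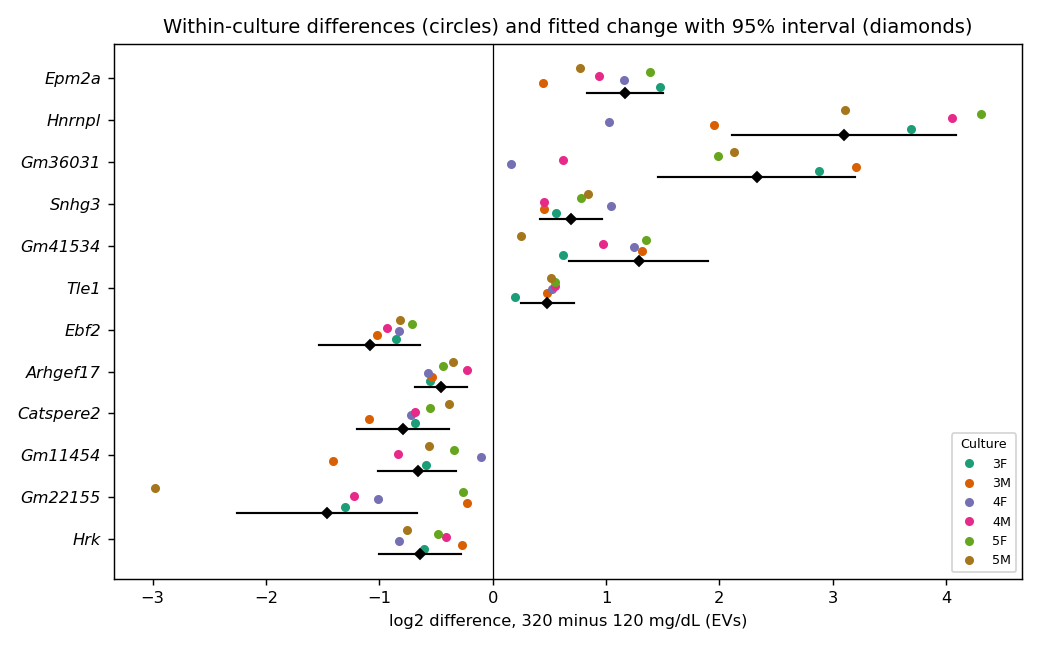
The fitted log2 fold change in EVs, 320 over 120 mg/dL, with its 95% interval is shown for the 12 genes nearest the threshold, with a small mark for each of the 6 cultures. By this choice every culture mark lies on the same side of 0 for each gene after TMM scaling. The marks of Hnrnpl and Gm36031 spread most among the higher genes.

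The largest fitted difference of all, chosen after its values were seen, was that of Cnnm3, a member of the cyclin M family of magnesium transport proteins on chromosome 1 from 36550884 to 36567318. At 120 mg/dL it had 2251, 14976, 3201, 18891 and 18005 counts in 3M, 4M, 5M, 3F and 5F, and in the same order 74, 78, 40, 59 and 23 counts at 320 mg/dL. Culture 4F went the other way, with 44 counts at 120 mg/dL and 138 at 320 mg/dL. In CPM the groups overlapped only through 4F, with 35.6 to 4068 (median 2719) against 9.0 to 190 (median 14.2). The log2 fold change was -6.73 ± 1.41 (SE, adjusted p = 1 by edgeR). In cells Cnnm3 was at 15.4 to 24.7 CPM at 120 mg/dL and 11.8 to 27.4 CPM at 320 mg/dL (log2 0.04 ± 0.14, SE). Untreated EVs held it at 12 to 34.4 CPM (median 22.3), beside medians of 2909 and 15.3 CPM at 120 and 320 mg/dL on the same scale. The high values of Cnnm3 were thus found in 5 of the 6 libraries at 120 mg/dL and in no EV library without ethanol or at 320 mg/dL, nor in the cells of either dose. Cnnm3 overlaps Ankrd23 and Gm38033 on the opposite strand.

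Without culture 4F, 4 genes passed the threshold of edgeR, and under some other settings further genes did. The 4F libraries were taken as labelled, and their origin was not tested beyond the correlation between their doses. The genes were Cnnm3, Gm36031, Hnrnpl and Cnga3 without 4F, and Cnnm3, Gm36031 and Hnrnpl both without 3M and 4F and with library totals in place of TMM factors. Without both cultures of set 4, Adra2c and Morc1 joined Cnnm3, Gm36031 and Hnrnpl. DESeq2 called Cnnm3, Epm2a and Hnrnpl, and limma with sample weights, which gave the 4F libraries weights of 0.508 and 0.575, called these, Gm36031 and Ttc39a. Adra2c encodes an adrenergic receptor and was at 12.1 to 216 CPM (median 105) and 14.6 to 108 CPM (median 44.4). Morc1, known for silencing transposons in the germ line, was at 7.57 to 331 and 3.38 to 27.5 CPM. Cnga3 encodes a cyclic nucleotide-gated channel and was at 8.89 to 186 and 5.63 to 117 CPM. Each of these 3 genes was higher at 320 mg/dL in 1 or 2 cultures and lower in the others.

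Several other genes had large values in some libraries only. Ttc39a had 14172 counts in 5M and 11990 in 3F at 120 mg/dL and 6 to 18 counts in the other 10 libraries (log2 -2.29 ± 1.91, SE, adjusted p = 1 by edgeR). Ankrd7, the only other gene with a fitted change of 16-fold or more, had at least 2038 counts in 2 libraries at 120 mg/dL and 5 at 320 mg/dL and at most 16 in the others (log2 4.47 ± 2.68, SE, adjusted p = 1 by edgeR). It was high at both doses in 3M and 4F, low at both in 5F, and high only at 320 mg/dL in 4M, 5M and 3F. Eno1, the glycolytic enzyme enolase, was at 11020 CPM in 5M at 320 mg/dL and at 10.6 to 29.6 CPM in the other libraries of that dose (log2 0.82 ± 1.00, SE, adjusted p = 1 by edgeR). Over the 12 libraries, 120 of the 11213 genes spanned more than 6 log2 units, while the median gene spanned 1.64.

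Hnrnpl and Epm2a were 2 of the 8 genes whose dose groups did not overlap in EVs after TMM scaling (0.0713% of those tested). The other 4 higher genes were chosen by this property alone. Lrwd1, which binds the origin recognition complex, was at 2.43 to 4.43 CPM at 120 mg/dL and 4.50 to 6.91 CPM at 320 mg/dL (log2 0.79 ± 0.18, SE). Utp20, a factor of ribosomal RNA processing, was at 10.7 to 13.7 and 13.8 to 19.1 CPM, and Wdr83os was at 2.37 to 6.65 and 6.65 to 10.9 CPM. Hook3, an adaptor of the dynein motor, was at 39.2 to 48.5 and 50.0 to 53.2 CPM, a narrow range with a log2 fold change of 0.17 ± 0.10 (SE). The lower genes were Dusp10, a MAP kinase phosphatase, at 3.07 to 5.2 and 1.37 to 3.00 CPM, and Zfyve28, an endosomal FYVE domain protein, at 4.75 to 5.60 and 1.65 to 4.60 CPM. These 6 genes had an adjusted p of 1 by edgeR. On library totals the groups of all 6 overlapped. Lrwd1 and Utp20 were then higher in 5 of 6 cultures, with 4F lower, Wdr83os and Hook3 in 4 of 6, with 4F and 4M lower, and Dusp10 and Zfyve28 were lower in 4 of 6, with 3M and 5M higher.

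Whether the dose step differed between EVs and the cells that secreted them was tested as an interaction over 24 libraries. Hnrnpl and Epm2a passed the threshold, 2 of 17382 genes (0.0115%), while 598 (3.44%) had an unadjusted p under 0.05, 305 (1.75%) with a more positive step in EVs than in cells and 293 (1.69%) with a more negative one. The Hnrnpl step was larger in EVs than in cells by a log2 value of 3.17 ± 0.46 (SE, 95% interval 2.20 to 4.15, adjusted p = 0.0296 by edgeR), and the Epm2a step by 1.11 ± 0.16 (SE, 95% interval 0.76 to 1.45, adjusted p = 0.0296 by edgeR). Neither call was independent of the choice of cultures. Without set 3 or without set 5 the adjusted p of Hnrnpl was 0.440 and 0.391, and without set 4 it was 0.00501. For Epm2a it was 0.220, 0.152 and 0.569 without sets 3, 4 and 5, 0.461 with library totals and 1 without the culture block, while Hnrnpl stayed past the threshold with library totals (0.0449) and without the block (0.00394). Next in rank was Gm34152 (log2 9.57 ± 1.59, SE, adjusted p = 0.109), where the value came from cells, with a median of 9.97 CPM at 120 mg/dL and of 0.0161 CPM at 320 mg/dL, and EVs held at most 2.75 CPM.

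In cells, 0 of 16675 genes (0%) passed the threshold of edgeR between the doses, and 808 (4.85%) had an unadjusted p under 0.05, of which 471 were higher (2.82%) and 337 lower (2.02%). The median SE there was 0.10, against 0.19 in EVs. The step in female EVs was compared with that in male EVs, 3 cultures each, and the threshold was passed by 0 of 11213 genes (0%). Without adjustment 304 (2.71%) had p under 0.05, 204 (1.82%) with a more positive step in females than in males and 100 (0.892%) with a more negative one. The genes nearest the threshold of this test were the locus LOC118568335, Cep131 (a centrosome protein) and Wnt9a (a Wnt ligand). After TMM scaling each was higher at 320 mg/dL in all 3 female cultures and in none of the male cultures. In 4F the rise rests on the scaling factor of 0.476 at 320 mg/dL, and on library totals each gene was lower there. The 4F counts at 120 and 320 mg/dL were 26 and 31 for Wnt9a, 11 and 12 for Cep131, and 3 and 3 for LOC118568335. For Wnt9a the mean log2 step over cultures was 0.92 in females and -2.63 in males. The fitted difference, a separate estimate, was 3.45 ± 0.77 (SE, adjusted p = 1 by edgeR). For Hnrnpl the mean log2 step was 3.01 in female and 3.04 in male EVs, and the interval of the fitted difference ran from -1.98 to 2.02. For Epm2a the mean step was 1.34 and 0.72 (fitted difference 0.63 ± 0.25, SE, adjusted p = 1 by edgeR).

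Groups of genes were taken from 22 lists of RNA classes, cell identity and stress pathways. No member of any list passed the threshold of edgeR in EVs. The lists are described by the number of members with an unadjusted p under 0.05, beside 3.54% over all genes tested, and by their median log2 fold change, beside 0.01. Where estimates above 0 are counted, the background is 5860 of the 11213 genes tested. The lists were written with results of these data in view.

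Genes for mRNA splicing, the group to which Hnrnpl belongs, had a median log2 fold change of 0.08 (59 of 60 members tested, quartiles -0.03 and 0.20). Estimates were above 0 for 40 members, and 4 (6.78%) had an unadjusted p under 0.05, all with higher estimates. Beside Hnrnpl these were Dhx16, a spliceosomal helicase (0.51 ± 0.21, SE), Srsf10, an SR protein (0.41 ± 0.14, SE), and Sf3b2, a subunit of the U2 particle (0.26 ± 0.12, SE). Hnrnpu, a member with one of the highest counts, was at 65.3 to 263 CPM and 89.7 to 238 CPM (log2 0.11 ± 0.13, SE). The size of the Hnrnpl difference was not shared by the other members tested, which ran from -0.27 to 0.51. In cells the median of the list was -0.04.

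The messenger RNAs of the mitochondrial genome had estimates above 0 in all 7 members tested, and their median log2 fold change was 0.44 (quartiles 0.33 and 0.48). ND2, a subunit of complex I, had the only unadjusted p under 0.05 (0.56 ± 0.24, SE, 14.3% of the list). COX1, a subunit of cytochrome oxidase, was at 35.8 to 500 CPM at 120 mg/dL and 92.1 to 807 CPM at 320 mg/dL (0.51 ± 0.24, SE), and CYTB, a subunit of complex III, at 22.9 to 273 and 55.2 to 529 CPM (0.45 ± 0.28, SE). All members tested except ND6, which is coded on the other strand, share 1 precursor RNA, and they do not vary independently. The median over members was above 0 in 5 of 6 cultures, from -0.41 in the lowest culture to 1.22 in the highest, and in cells it was 0.13. The ribosomal RNAs of the mitochondria, mt-Rnr2 and mt-Rnr1, had log2 fold changes of 0.24 ± 0.70 and 0.16 ± 0.51 (SE).

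Cytosolic ribosomal protein genes had estimates above 0 for 66 of 76 members tested (median log2 fold change 0.15, quartiles 0.08 and 0.18). Of these 3 (3.95%) had an unadjusted p under 0.05, Rps27 (0.38 ± 0.11, SE), Rplp2 (0.35 ± 0.11, SE) and Rpl21 (0.25 ± 0.11, SE). Rpl4, a protein of the large subunit, was at 333 to 800 CPM and 365 to 770 CPM (-0.14 ± 0.18, SE), the opposite direction. The cultures ranged from -0.61 to 0.46 in the median of the list.

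Noncoding RNA classes other than these showed no member past an unadjusted p of 0.05, except 2 transfer RNA genes with lower estimates. Of 395 nuclear transfer RNA genes only 38 passed the filter on low counts, with a median estimate of -0.06 on the log2 scale. The 2 (5.26% of those tested) were n-TLcaa1 (-0.57 ± 0.20, SE) and n-TAagc19 (-0.41 ± 0.17, SE). Snord3a, the U3 small nucleolar RNA of ribosomal RNA processing, was at 29.7 to 720 and 19.1 to 887 CPM (0.29 ± 0.22, SE). Rpph1, the RNA of ribonuclease P, was at 1530 to 8926 and 1467 to 7841 CPM (0.31 ± 0.31, SE), and Rmrp, of the related RNase MRP, had 0.09 ± 0.26 (SE). The 10 structural RNAs tested had a median of 0.20, and Rn7sk, which restrains transcription elongation, had 0.35 ± 0.20 (SE).

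MicroRNA loci passed the filter in 7 of 1188 cases, 3 of them long host genes and 4 hairpins. Mature sequences were matched for 3 of the 4 hairpins, and they are shown so that the loci can be told apart by their seeds. The capitals mark the seed, bases 2 to 8, and the sequences are those of RefSeq (GRCm38.p6), 5′ to 3′. The 5 mature RNAs have 5 different seeds, and the libraries count reads on the locus, not mature microRNAs.
mmu-miR-6240: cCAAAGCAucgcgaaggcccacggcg
mmu-miR-7652-5p: uAAGGGCAcagggauuucaggc
mmu-miR-7652-3p: uCUGGCUUuccuguggcuucu
mmu-let-7i-5p: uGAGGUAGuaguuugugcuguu
mmu-let-7i-3p: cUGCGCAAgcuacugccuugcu
Mir6240 was at 43.7 to 554 CPM at 120 mg/dL (median 77.0) and 16.1 to 418 CPM at 320 mg/dL (median 51.2), lower in 5 of 6 cultures and higher in 4F by a log2 value of 3.23. Its log2 fold change was -0.57 ± 0.56 (SE). Mir7652 was lower in all 6 cultures with overlapping groups (2.03 to 11.9 and 1.57 to 6.90 CPM, log2 -0.26 ± 0.19, SE), and Mirlet7i, of the let-7 family that is known to promote differentiation, was at 0 to 5.2 and 1.13 to 9.62 CPM (0.22 ± 0.32, SE). Among the host genes, Mir100hg had 0.24 ± 0.14 (SE).

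NSC identity genes had estimates above 0 in 17 of 20 members (median log2 fold change 0.08). After TMM scaling the median was above 0 in 6 of 6 cultures (0.02 to 0.16). In 4F this rests on the scaling factors, 1.29 at 120 mg/dL and 0.476 at 320 mg/dL, and its step is lower on library totals. Slc1a3, a glutamate transporter of radial glia, was the member with an unadjusted p under 0.05 (5% of the list), at 41.6 to 98.5 and 57.7 to 107 CPM (0.32 ± 0.11, SE). Neuronal genes (13 tested, median 0.09) and glial genes (13 tested, median 0.09) had none. Map2, a neuronal microtubule protein, was at 132 to 211 and 146 to 202 CPM (0.13 ± 0.12, SE), and Olig1, a transcription factor of the oligodendrocyte lineage, at 84.5 to 255 and 87.0 to 238 CPM (-0.10 ± 0.14, SE). None of the microglia, blood and vessel genes passed the filter. Genes of EV biogenesis had a median of 0.01 over 41 members (quartiles -0.13 and 0.10), and none had an unadjusted p under 0.05. Among them Cd63 and Cd81, tetraspanins of the vesicle membrane, had 0.04 ± 0.14 and 0.13 ± 0.14 (SE), and Tsg101, a component of the ESCRT machinery that buds vesicles, 0.09 ± 0.18 (SE).

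Stress and metabolism genes gave few members at an unadjusted p under 0.05. In the NRF2 and antioxidant group 4 of 24 (16.7%) had one, the largest share of the 22 lists, beside 3.54% over all genes. Nfe2l2, the gene of NRF2 itself, was at 7.12 to 63.9 CPM at 120 mg/dL and 9.62 to 23.1 CPM at 320 mg/dL (-0.87 ± 0.27, SE), while the estimates were above 0 for Mt2 (0.38 ± 0.12, SE) and Mt1 (0.24 ± 0.10, SE), metallothioneins that bind metals, and for Taldo1 (0.35 ± 0.14, SE), an enzyme of the pentose phosphate pathway. In cells Mt2 and Mt1 had estimates of like size, 0.41 ± 0.19 and 0.34 ± 0.13 (SE). Nfe2l2 and Taldo1 had 0.08 ± 0.06 and -0.02 ± 0.08 (SE) there. The median of the list was 0.12 in EVs, and 0 in cells. Genes that metabolize ethanol and aldehydes had none in 8 tested (median 0), with Aldh2, the main mitochondrial aldehyde dehydrogenase, at 0.24 ± 0.23 (SE). Among 26 ER stress genes tested the single member was Ddit4 (0.36 ± 0.16, SE, 3.85% of the list), an inhibitor of mTOR signalling. Among 16 heat shock genes tested it was Hsp90aa1 (0.30 ± 0.12, SE, 6.25% of the list). The cholesterol synthesis list (19 tested, median 0) and the glycolysis and hypoxia list (19 tested, median 0.09) had none.

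Growth and death genes were close to the background in EVs. Among 33 genes of DNA replication and mitosis (median log2 fold change 0.05) Cdt1, which licenses origins of replication, had 0.63 ± 0.23 (SE), and Cdk1, the mitotic kinase, was lower in 6 of 6 cultures at 10.6 to 29.7 and 8.22 to 22.5 CPM (-0.36 ± 0.12, SE). These were the members of that list with an unadjusted p under 0.05 (6.06%). In the p53 and apoptosis list (20 tested, median -0.05) Hrk was the single member (5%). Mdm2, which marks p53 for degradation, was at 178 to 989 and 244 to 1494 CPM (0.25 ± 0.37, SE). Of 52 histone genes 3 (5.77%) had an unadjusted p under 0.05, H3c4 (0.61 ± 0.16, SE) and H2bc12 (0.46 ± 0.20, SE) with higher and H2bc21 (-0.66 ± 0.29, SE) with lower estimates. In cells 12 of 53 histone genes were higher and 1 lower at this cut, beside 2.82% and 2.02% over all genes. The list median was 0.13 in cells and 0.04 in EVs. In cells H3c4 had 0.13 ± 0.12, H2bc12 0.42 ± 0.12 and H2bc21 -0.27 ± 0.10 (SE).

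**Figure D5:**
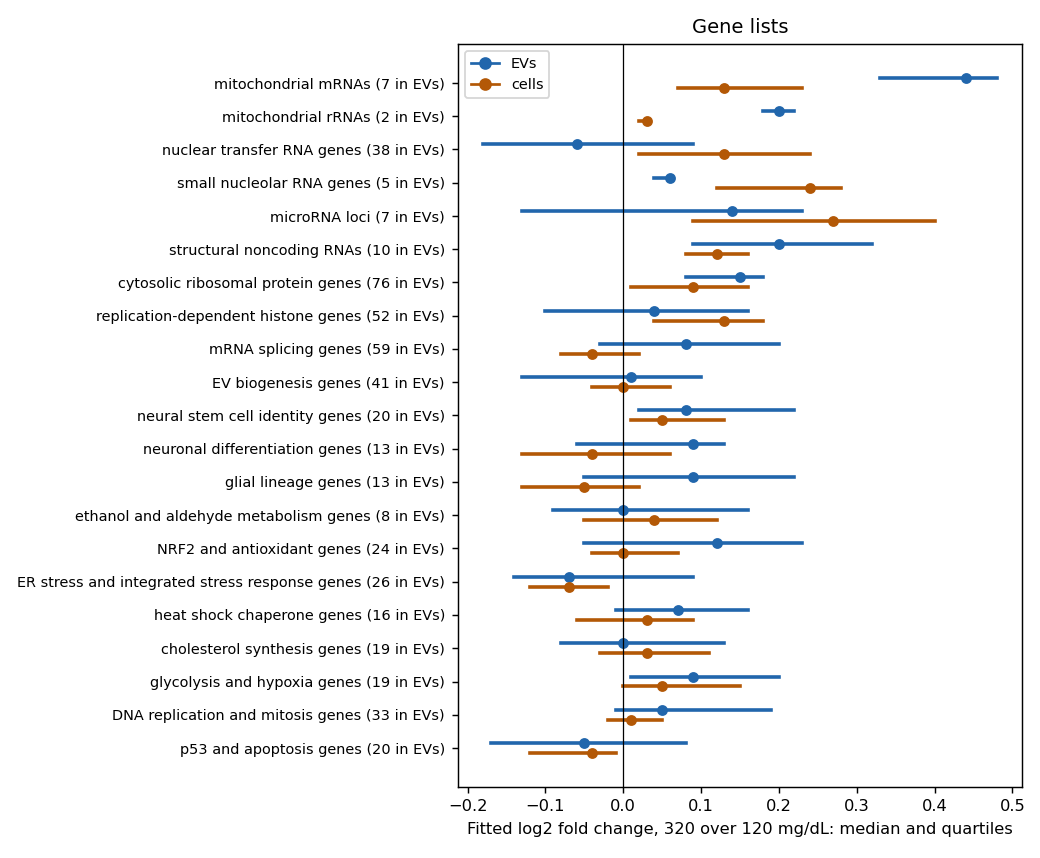
The median log2 fold change, 320 over 120 mg/dL, of the tested members of each gene list with any in EVs is shown as a point with its quartiles as a line, for EVs (blue) and for the cells that secreted them (orange). Most medians lie within 0.2 of 0, with mitochondrial mRNAs in EVs farthest from it at 0.44.

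The features with the most counts did not differ detectably between the doses. Cdk8, the kinase of the Mediator complex, took 9.46% to 18.7% of the counts of a library at 120 mg/dL and 7.22% to 16.1% at 320 mg/dL, with a ratio of 0.497 to 1.34 within cultures. Its fitted log2 fold change was -0.06 ± 0.86 (SE). mt-Rnr2 took 4.16% to 11.8% and 3.80% to 16.2%, and was higher in share in 5 of 6 cultures. Htt, the huntingtin gene, ran from 0.00459% to 4.41% and from 0.00284% to 3.61%, and Wtap, of the complex that methylates adenosine in RNA, from 0.540% to 2.17% and from 0.250% to 1.76%. Over both doses Htt was at 52.2 to 61567 CPM in EVs and 66.8 to 237 CPM in cells, scaled separately. Wtap was at 4258 to 24690 CPM in EVs and 70.2 to 570 CPM in cells. Whether the reads at these loci come from the messenger RNAs they are named for was not tested. Gm51464 took 18.1% in its highest library at 120 mg/dL and 3.85% at 320 mg/dL (log2 -1.04 ± 0.81, SE). The SE of these 10 features was 0.45 to 0.92 against a median of 0.19 over all genes.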

How the data were processed

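RNA of EVs and of NSCs was sequenced as rRNA-depleted, stranded libraries in a single pooled run. Per the labels and the study's methods, reads were stripped of adapters, low-quality bases and duplicates, aligned to mm39 with STAR and assigned to features with HTSeq. The authors deposited the whole counts of 40205 features for each library, with no normalization. The submitters' processing notes also name DESeq2 2.11.40.6. How strand was treated in the counting is not given in the sources used here.

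The counts were used as deposited in R 4.3.3. For the 12 EV libraries, genes were kept by filterByExpr of edgeR 4.0.16 (minimum count 10, minimum total 15), scaled by TMM and tested by the quasi-likelihood F test with the culture as a block and Benjamini-Hochberg adjusted p under 0.05. CPM are TMM-scaled. Log2 values of named genes in single cultures or libraries, and their means, used log2(CPM + 1). List medians by culture used log2 CPM with a prior count of 1. Interactions were fitted over 24 libraries (EVs and cells) or the 12 EV libraries (sex). Alternatives were DESeq2 1.42.0, limma 3.58.1 with voom sample weights, other scalings, no filter, thinning, other blocks and left-out cultures. The culture codes pair the libraries by origin, and the deviations of the 2 doses from the dose means correlated by 0.288 to 0.618 in EVs. No 2 of the EV libraries were duplicates (chi-square per degree of freedom at least 21.7 over 66 pairs).

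Named genes are the 6 per direction of smallest p among those with 1 direction in all 6 cultures (no gene passed the threshold), the 2 members per list with the highest level, the 10 features with the most counts and the 3 genes of smallest p in each interaction, with others named as chosen after their values were seen. The text gives those members that bear on a comparison. The gene lists, members and tests were chosen with earlier results of these data known. Positions are from GENCODE vM39 on GRCm39, which matched 79.4% of the symbols. The tests were tested on simulated data, and figures were drawn with Python 3.11.15 and matplotlib 3.10.9. No column of values was left unused.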

Additional observations from a re-analysis of the deposited data

Results flagged for a closer look

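Hnrnpl and Epm2a differed between EVs and cells in the step from 120 to 320 mg/dL, by a log2 value of 3.17 for Hnrnpl and 1.11 for Epm2a, in the test of the difference itself (edgeR, adjusted p = 0.0296 each). Their values by culture, and the cultures without which the difference missed the threshold, stand with the report.

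In 136 sets of 6 EV libraries of 1 dose, 11 (8.09%) held a library far from the other 5, where chance gives about 1 in 20. The 320 mg/dL library of 3M accounted for 5 of these and that of 4F for 2, and the 136 sets share the same 12 libraries. In log2 CPM, the 3M library at 320 mg/dL was the lowest for mt-Rnr2 (14.9, next 16.3), Snord3a (4.33, next 8), Rpph1 (10.5, next 12.1) and Ccne2, a cyclin of S-phase entry (6.04, next 7.11). Its share of counts in the 10 features with the most counts was also the lowest, at 29.6% (next 50.5%). The 4F library at 320 mg/dL was the highest for Gm36876 (18.9, next 15.9) and AY036118 (17.8, next 14). At 120 mg/dL 3M was the highest for Gm36876 (16.7, next 15.9). Zmat3, a p53 target, was lowest in 5F at both doses (6.79 at 120 mg/dL and 6.67 at 320 mg/dL). Eno1 was highest in 5M at 320 mg/dL, at 13.4 (next 4.94).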

How the results depend on the processing

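The count of 0 genes in EVs was also obtained in 13 of 21 alternatives, and the range over all was 0 to 235. It was 3 with library totals, 3 with DESeq2, 5 with limma and sample weights and 110 (42 higher) with no filter on low counts. It was 235 of 28845 features (125 higher) by 3 combined criteria with no adjustment (paired p under 0.05, Hedges' g beyond 0.4 and an interval of g without 0). Leaving out 1 pregnancy or culture gave 0 to 5 genes, 5 without set 4 and 4 without 4F, and leaving out 3M and 4F, chosen after seeing the data, gave 3. Without the culture block, that is with no pairing, it was 0 (144 genes with an unadjusted p under 0.05), and with terms for set and sex instead 0 (219 genes).

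The 12 genes nearest the threshold kept their direction in every alternative that tested them, with log2 values of 2.75 to 3.80 for Hnrnpl and 1.05 to 1.23 for Epm2a. Adjusted p ran from 4.16e-22 to 1 for Hnrnpl and from 5.59e-07 to 1 for Epm2a. Both smallest values came from edgeR with no filter on low counts, and DESeq2 gave 4.25e-09 and 0.000834. Left-out pregnancies gave 0 to 4 genes for EVs against cells, 0 to 1 in cells (Pbld2, without set 5) and 0 between the sexes, and without the block EVs against cells gave 2 genes, Hnrnpl and Cnnm3. The mean differences of the library measures turned with the set left out, with total counts from -0.949 to 0.127 M (1000000 counts), features from -872 to 283 and the share of the 10 features from -7.89 to 2.58 percentage points (1.94 without set 5). The causes were not tested. Depth limits genes below about 5 CPM most, and in 3M and 4F a CPM of 5 is a handful of counts.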
